A study of Mus musculus with 10 samples.

Results

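The genes most often used to recognise A2-type reactive astrocytes were followed in CAGE profiles of the mouse hippocampus after status epilepticus (SE), gene by gene and mouse by mouse. They were chosen by symbol from a table of 15900 genes. Of the 10 symbols sought, 9 had a row (*Clcf1*, *Tgm1*, *Ptx3*, *S100a10*, *Sphk1*, *Cd109*, *Emp1*, *Tm4sf1* and *Slc10a6*), and *B3gnt5* was not analysed here. All 9 passed the filter on low values, which asked for at least 0.1 CPM (tag counts scaled to a common library total) in at least 2 libraries. *Tgm1*, *Slc10a6* and *Clcf1* would not have passed it on the pre-SE mice, so that these 3 had to be higher in other mice to be tested. CAGE (cap analysis of gene expression) reads short tags from capped RNA 5′ ends, and a tag therefore gives the position where transcription began.

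The tissue was the whole hippocampus of male ICR mice of 9–10 weeks, without genetic modification, and each group held 2 mice. Mice of the group pre-SE received no pilocarpine (PILO), a muscarinic agonist that induces seizures. The study injected methyl scopolamine ahead of PILO, and its control mice got saline in place of PILO. Elsewhere it calls pre-SE mice naive. Mice of the groups SE 6 h and SE 2 days were sampled 6 h or 2 days after PILO-induced SE, defined by 5 generalized convulsive seizures and ended with diazepam. Mice of the groups SE + LEV 6 h and SE + LEV 2 days went through the same SE and were then given the antiseizure drug levetiracetam (LEV) by mouth, 1 time before the sample at 6 h and 5 times before the sample at 2 days. LEV thus came after SE had been ended, no group received LEV without SE, and the control mice stand for both times. The recovered library totals ran from 10540698 to 51710968 tags (median 26671413), and the detection limit, set at 3 tags, corresponded to 0.058 to 0.285 CPM. The values were rounded to 2 decimals, which is worth up to 0.053 tags in the shallowest and up to 0.259 tags in the deepest library, so that tag counts, and folds computed from them, are estimates. Each mouse gave 1 library, and the RNA came from all cells of the hippocampus: fewer cells of a type and less RNA per cell cannot be told apart, nor does a tag show which cell type it came from.

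Astrocytes respond to injury by becoming reactive, with higher expression of the intermediate filament genes *Gfap* and *Vim*. Reactive astrocytes have been sorted into an A1 type, first described after inflammatory stimulation and regarded as neurotoxic, and an A2 type, first described after ischemia and regarded as supportive of neurons, each with its own gene list beside a pan-reactive list common to both. The A2 list joins genes of unrelated function, namely a cytokine, a secreted pattern recognition protein, 2 enzymes, membrane proteins and a transporter, and several of them are also expressed by endothelial or immune cells. The comparison with SE asked whether these genes rose during the days in which epilepsy develops, and the comparison with LEV asked whether they stayed high under the drug.

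Promoter sequences are shown for the 3 genes in which both LEV-treated mice lay below both untreated mice at both times (*Ptx3*, *Tm4sf1* and *Sphk1*) and for *Emp1*, because the study is concerned with *Fosl1*, which encodes a subunit of the transcription factor AP-1, and *Emp1* and *Sphk1* hold the AP-1 letters. RefSeq promoter windows of 300 bases (GRCm38.p6, 250 bases before the start site and 50 after it) were given for 6 of the 9 genes, in 12 windows, and each of these matched mm9 at 1 place. Capitals mark TGACTCA or its other strand, TGAGTCA. For *Emp1*, *Ptx3* and *Tm4sf1* the 250 bases before the start site are printed 5′ to 3′ on the strand of the gene (mm9 chr6:135312699-135312948, plus strand, chr3:66023559-66023808, plus strand, and chr3:57105911-57106160, minus strand). For *Sphk1*, where the window lies in a transcribed part of the annotated gene, 27 bases around the letters are printed (chr11:116393091-116393117, plus strand).
*Emp1*: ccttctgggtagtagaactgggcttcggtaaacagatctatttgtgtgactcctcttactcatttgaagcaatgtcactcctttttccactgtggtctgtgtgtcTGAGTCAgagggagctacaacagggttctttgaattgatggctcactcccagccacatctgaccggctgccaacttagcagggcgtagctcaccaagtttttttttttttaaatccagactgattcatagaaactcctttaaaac
*Ptx3*: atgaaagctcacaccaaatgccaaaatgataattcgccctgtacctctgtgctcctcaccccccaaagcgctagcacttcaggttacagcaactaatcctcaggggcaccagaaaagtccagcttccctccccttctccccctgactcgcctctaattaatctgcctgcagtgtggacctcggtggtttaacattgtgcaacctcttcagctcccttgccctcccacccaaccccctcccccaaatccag
*Tm4sf1*: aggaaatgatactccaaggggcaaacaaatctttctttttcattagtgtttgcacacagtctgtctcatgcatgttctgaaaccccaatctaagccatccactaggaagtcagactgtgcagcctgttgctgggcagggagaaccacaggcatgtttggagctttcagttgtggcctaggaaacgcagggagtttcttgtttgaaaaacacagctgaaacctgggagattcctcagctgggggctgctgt
*Sphk1*: agcgtgtcgcTGAGTCAccttctcgga

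The AP-1 letters stood at −145 from the *Emp1* start site and at −50 and −124 from a pair of overlapping *Sphk1* windows, which share the same copy. They were found in 2 of the 6 genes and in 3 of the 12 windows, against 5.20% of all 32851 windows of this length. The palindrome TTCNNNGAA, the letters bound by STAT factors, was found in *Tgm1*, *Sphk1* and *Emp1* (8.30% of all windows, on either strand), and TATAAA or its other strand in 1 *Sphk1* window (13.6% of all windows). *Sphk1* had 5 windows and *Tgm1* and *Emp1* had 2 each, which gives a gene more letters to search. A match is a description of these letters and no measure of binding.

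After SE, 8 of the 9 genes were higher in both mice than in both pre-SE mice at 6 h (18.6% of all genes were). At 2 days 9 were (26.3% of all genes), of which *Slc10a6* rests on 2 tags in 1 of the mice, under the detection limit. At 6 h, 6 genes rose by limma at an adjusted p of at most 0.05 (*Clcf1*, *Ptx3*, *Sphk1*, *Emp1*, *Tm4sf1* and *Slc10a6*), where 2.76% of all 15851 genes tested were called higher. At 2 days, 7 genes rose (all but *Cd109* and *Slc10a6*), where 5.07% of all genes were called higher. Among the 6 genes that did not depend on mice after SE to be tested, these counts were 4 (*Ptx3*, *Sphk1*, *Emp1* and *Tm4sf1*) and 5 (the same 4 and *S100a10*). The median difference over the 9 genes was 3.56 on the log2(CPM + 0.1) scale at 6 h and 4.47 at 2 days, and that of all genes was −0.13 and −0.03. These medians, and the counts of 8 and 9 genes without overlap, include *Tgm1*, *Slc10a6* and *Clcf1*, which had to be higher in other mice to be tested. The median at 6 h is the value of *Slc10a6* itself. None of the 9 fell, and 0.202% and 0.593% of all genes did. At 6 h the count of 6 rested on every mouse of the groups compared: it was 0 without pre-SE replicate 1 or SE 6 h replicate 2, and 1 without pre-SE replicate 2 or SE 6 h replicate 1. It was also 1 with 1 CPM added in place of 0.1, and 4 without the mean-variance trend of the fit (*Clcf1* and *Tm4sf1* lost). Of 19 alternatives, *Emp1* was called at 6 h in 16, *Sphk1* in 15, *Ptx3* in 14, *Tm4sf1* in 11 and *Clcf1* in 7, and *Slc10a6* in 13 of 18. At 2 days the count was 3 without SE 2 days replicate 2 and 5 to 7 without any other mouse. The exact permutation test over 2 mice against 2 cannot go below p = 0.333, and each call therefore depends on limma's shared estimate of the spread.

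**Figure D1:**
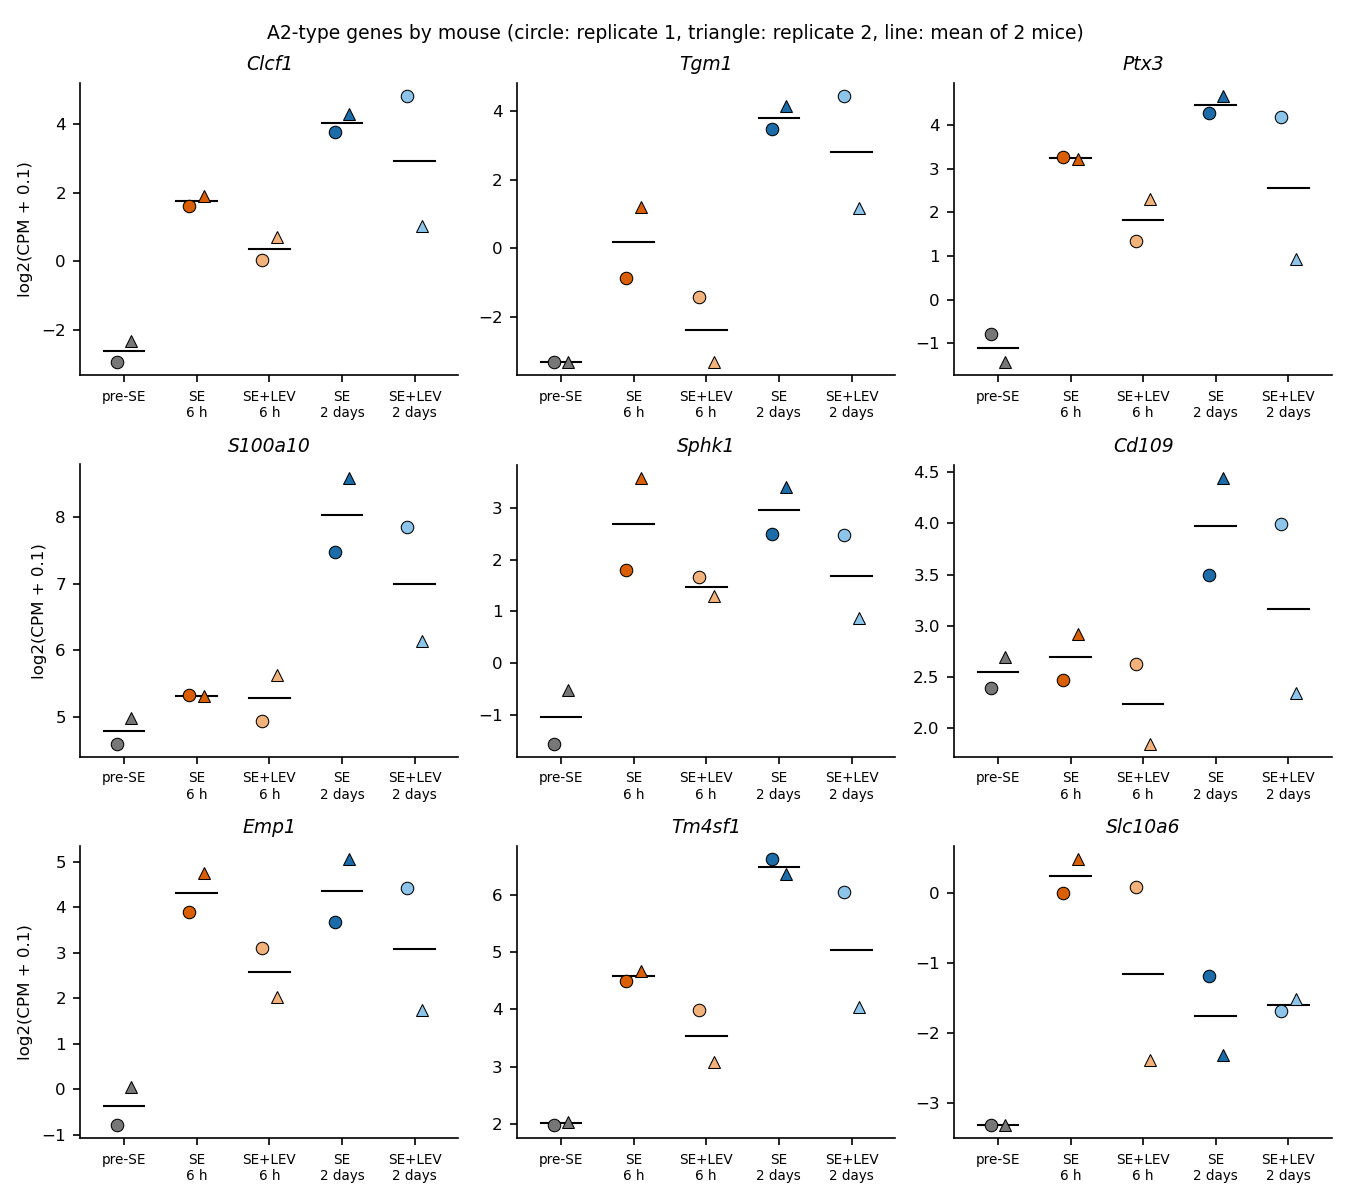
CPM of the 9 A2-type genes in each of the 10 mice, as log2(CPM + 0.1) on the y axis of each panel and the 5 groups on the x axis, with circles for replicate 1, triangles for replicate 2 and a line at the mean of the 2 mice. In 8 of the 9 panels, all but *Slc10a6*, the circle of SE + LEV 2 days stands above its triangle.

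*Clcf1* (ENSMUSG00000040663, mm9 chromosome 19, 4214238 to 4223490, plus strand) encodes a cytokine of the interleukin-6 family that signals through the gp130 receptor and the JAK–STAT pathway. It was barely detected before SE, at 0.03 and 0.1 CPM (1 and 5 tags) in the 2 pre-SE mice. It stood at 2.95 and 3.63 CPM in SE 6 h mice and at 13.7 and 19.6 CPM in SE 2 days mice. The differences from pre-SE were 4.39 ± 0.93 (log2, standard error, adjusted p = 0.035) at 6 h and 6.67 ± 0.93 (adjusted p = 0.0032) at 2 days, and *Clcf1* was higher in all mice of the later group than in those of the earlier (difference 2.29 ± 0.93, adjusted p = 0.21). LEV-treated mice had 0.93 and 1.52 CPM at 6 h, which lay between the pre-SE and SE mice. At 2 days they had 28 and 1.93 CPM, the first above both untreated SE mice and the second below both. A gene annotated on the minus strand (*AC109138.1*) overlaps *Clcf1*, and whether strand was used in counting is not given in the sources used here.

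*Ptx3* (ENSMUSG00000027832, chromosome 3, 66023809 to 66029728, plus strand) encodes the long pentraxin PTX3, a secreted pattern recognition protein that binds complement components and stabilizes hyaluronan matrix. Before SE it had 0.48 and 0.27 CPM. These values were 9.56 and 9.18 CPM at 6 h after SE, and 19.2 and 25.2 CPM after 2 days. *Ptx3* thus rose by 4.35 ± 0.82 at 6 h (adjusted p = 0.021) and by 5.58 ± 0.82 at 2 days (adjusted p = 0.004). With LEV it was 2.43 and 4.84 CPM at 6 h and 18.0 and 1.81 CPM at 2 days. Both treated mice were below both untreated mice at both times, but replicate 1 at 2 days missed the lower untreated mouse by little, and the differences of −1.42 ± 0.82 and −1.91 ± 0.82 had adjusted p = 1. *Veph1*, on the minus strand, overlaps *Ptx3*.

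*Sphk1* (ENSMUSG00000061878, chromosome 11, 116392239 to 116397988, plus strand) encodes sphingosine kinase 1, which makes the signalling lipid sphingosine 1-phosphate. Before SE it was at 0.24 and 0.6 CPM, against 3.37 and 11.9 CPM at 6 h and 5.55 and 10.6 CPM at 2 days after SE. The rise over pre-SE was 3.73 ± 0.70 at 6 h (adjusted p = 0.02) and 3.99 ± 0.70 at 2 days (adjusted p = 0.0087), and the SE mice of the 2 times overlapped. With LEV, *Sphk1* was 3.06 and 2.37 CPM at 6 h and 5.51 and 1.73 CPM at 2 days. Both treated mice were below both untreated mice at each time, by the narrowest margin for replicate 1 at 2 days (5.51 against 5.55 CPM).

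*Tgm1* (ENSMUSG00000022218, chromosome 14, 56318846 to 56332329, minus strand) encodes transglutaminase 1, which crosslinks proteins and is best known from the cornified envelope of skin. No tag was counted in either pre-SE mouse, where 3 tags would have been 0.104 and 0.058 CPM. SE 6 h mice had 0.45 and 2.19 CPM (14 and 32 tags), and SE 2 days mice had 10.9 and 17.6 CPM (258 and 369 tags). Against 3 tags per pre-SE library, the mean of the SE mice was higher by at least 16.3-fold at 6 h and by at least 177-fold at 2 days. The fitted difference was 3.49 ± 1.03 at 6 h (adjusted p = 0.12) and 7.13 ± 1.03 at 2 days (adjusted p = 0.0036). With LEV at 6 h, *Tgm1* had 0.27 CPM (8 tags) in replicate 1 and 0 tags in replicate 2, whose 3 tags were worth 0.285 CPM, so the 2 mice could not be told apart at this depth. At 2 days the LEV-treated mice had 21.5 and 2.14 CPM, on either side of the untreated mice.

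*S100a10* (ENSMUSG00000041959, chromosome 3, 93359002 to 93368565, plus strand) encodes the S100 protein p11, which binds annexin A2 and takes part in trafficking of membrane proteins and in plasmin formation. It was expressed before SE, at 24.2 and 31.5 CPM, and was little higher in SE 6 h mice, at 40.2 and 39.7 CPM (difference 0.53 ± 0.52, 95% confidence interval −0.62 to 1.68, adjusted p = 0.63). SE 2 days mice had 178 and 384 CPM, a rise of 3.24 ± 0.52 over pre-SE (adjusted p = 0.0056) and of 2.71 ± 0.52 over SE 6 h mice (adjusted p = 0.019). *S100a10* was the single gene of the 9 that rose between the 2 times by this test, where 3.14% of all genes were called higher. Leaving out either SE + LEV 2 days mouse, which enters this comparison through the shared spread alone, brought the count to 4 (*Clcf1*, *Tgm1* and *Tm4sf1* in addition), as did a fit of only the 2 groups compared. The *S100a10* call was lost without either SE 6 h mouse or without SE 2 days replicate 2. LEV-treated mice had 30.8 and 49.2 CPM at 6 h, around the untreated values. At 2 days they had 231 and 70.6 CPM, the first between the untreated mice and the second below both.

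*Emp1* (ENSMUSG00000030208, chromosome 6, 135312949 to 135333191, plus strand) encodes epithelial membrane protein 1, a tetraspan protein of the PMP22 family. It stood at 0.48 and 0.93 CPM before SE, at 14.8 and 26.7 CPM by 6 h and at 12.6 and 33.0 CPM by 2 days. *Emp1* rose by 4.69 ± 0.81 at 6 h (adjusted p = 0.014) and by 4.73 ± 0.81 at 2 days (adjusted p = 0.0079). With LEV its CPM was 8.47 and 3.98 at 6 h, below both untreated mice. At 2 days it was 21.4 in the first LEV-treated mouse, between the untreated mice, and 3.24 in the second, below both.

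*Tm4sf1* (ENSMUSG00000027800, chromosome 3, 57089533 to 57105841, minus strand) encodes a tetraspanin-like membrane protein of the L6 family that is prominent in endothelial cells. It was at 3.86 and 4.02 CPM before SE, reached 22.5 and 25.5 CPM by 6 h and 97.9 and 81.6 CPM by 2 days, so the mice of a group lay close together in each of these groups. The rise was 2.57 ± 0.54 at 6 h (adjusted p = 0.034) and 4.47 ± 0.54 at 2 days (adjusted p = 0.0016). LEV-treated mice had 15.8 and 8.35 CPM at 6 h and 66.0 and 16.3 CPM at 2 days. All 4 lay below the untreated mice of their time and above both pre-SE mice.

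*Cd109* (ENSMUSG00000046186, chromosome 9, 78463353 to 78564060, plus strand) encodes a GPI-anchored coreceptor that dampens TGF-β signalling. Its 5.17 and 6.38 CPM before SE overlapped with 5.45 and 7.47 CPM at 6 h (difference 0.15 ± 0.54, 95% confidence interval −1.06 to 1.36, adjusted p = 0.91). In SE 2 days mice it was 11.2 and 21.7 CPM, above both pre-SE mice (difference 1.42 ± 0.54, unadjusted p = 0.025, adjusted p = 0.18). LEV-treated mice had 6.08 and 3.51 CPM at 6 h and 15.8 and 4.97 CPM at 2 days, and in both comparisons they overlapped the untreated or the pre-SE mice. An antisense gene (*4921509A06Rik*) overlaps *Cd109*.

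*Slc10a6* (ENSMUSG00000029321, chromosome 5, 104034730 to 104058422, minus strand) encodes a sodium-dependent transporter of sulfated steroids. Like *Tgm1* it had no tag in either pre-SE mouse. SE 6 h mice had 0.9 and 1.3 CPM (28 and 19 tags), at least 13.6-fold higher than 3 tags per pre-SE library (fitted difference 3.56 ± 0.73, adjusted p = 0.03). It was the member whose SE mice were lower at 2 days than at 6 h, with 0.34 and 0.1 CPM (8 and 2 tags, difference from SE 6 h −1.996 ± 0.73, unadjusted p = 0.021, adjusted p = 0.17). With LEV at 6 h the mice were far apart, at 0.96 CPM (29 tags) and 0.09 CPM (1 tag). At 2 days they were close, at 0.21 and 0.25 CPM (9 and 6 tags), between the untreated values. *Gm15844*, on the plus strand, overlaps *Slc10a6*.

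**Figure D2:**
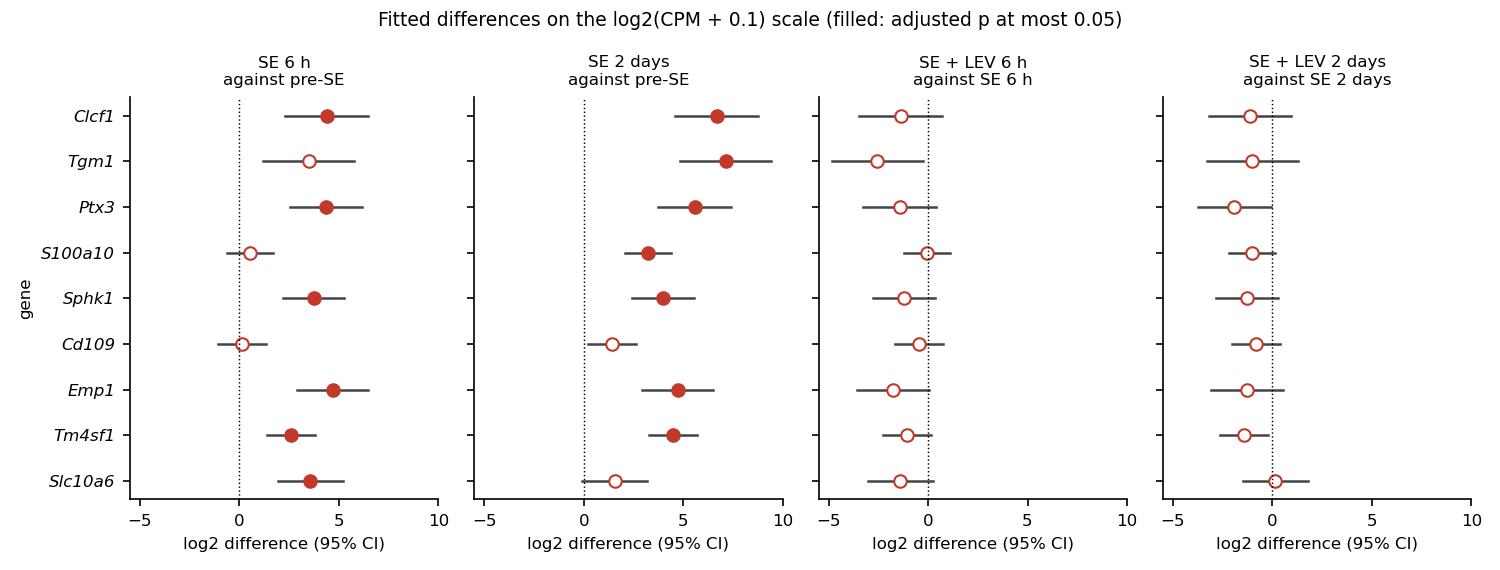
Fitted log2 differences of the 9 A2-type genes (x axis, on the log2(CPM + 0.1) scale, with 95% confidence intervals as bars) for SE against pre-SE and SE + LEV against SE at each time; filled points have an adjusted p of at most 0.05. There are 6 filled points at 6 h and 7 at 2 days for SE against pre-SE, and 0 for LEV at either time.

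With LEV at 6 h, all 9 genes had a lower estimate than without it (44.2% of all genes did), with a median difference of −1.38 (0.04 over all genes), but 0 were called by limma (0.0126% of all genes were called lower). At an unadjusted limma p under 0.05, 1 was lower (*Tgm1*, −2.54 ± 1.03), where 3.42% of all genes were. This difference rests on few tags: SE 6 h replicate 1 had 14, and the LEV-treated mice had 8 and 0. Over 19 alternatives the *Tgm1* estimate ranged from −4.25 to −0.93. Both treated mice were below both untreated mice in 6 of the 9 (*Clcf1*, *Ptx3*, *Sphk1*, *Tgm1*, *Emp1* and *Tm4sf1*), where 13.4% of all genes were. *Tgm1* and *Clcf1* passed the filter through mice after SE, the untreated mice of this comparison among them. The counts of 6 and 9 and the median include them, and the count of 9 and the median also include *Slc10a6*, of which the same holds. In these 6 the LEV-treated mice stood at 0 to 65.7% of the mean of the untreated SE mice, with *Emp1* at 40.8% and 19.2% and *Clcf1* at 28.3% and 46.2%. The other 3 overlapped. *S100a10*, at 77.0% and 123%, and *Cd109*, at 94.1% and 54.3%, had not passed the test against pre-SE at 6 h, and *Slc10a6* was at 87.3% and 8.18%. Against pre-SE mice, 0 of the 9 were called higher in SE + LEV 6 h mice (0.315% of all genes were), and 6 were higher at an unadjusted p under 0.05 (5.53% of all genes), namely *Clcf1*, *Ptx3*, *Sphk1*, *Emp1*, *Tm4sf1* and *Slc10a6*. Among these, *Clcf1* and *Slc10a6* had to be higher in other mice than pre-SE mice to be tested. The comparisons with LEV at 6 h share the SE 6 h or the pre-SE mice with the ones above. The count of 0 against pre-SE was 2 without either SE + LEV 2 days mouse.

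With LEV at 2 days, 8 of the 9 estimates were lower (44.6% of all genes were), with a median difference of −1.12 (0.04 over all genes), and 0 of the 9, like 0% of all genes, were called lower by limma. At an unadjusted limma p under 0.05, 2 were lower (*Tm4sf1*, −1.44 ± 0.54, and *Ptx3*), where 1.39% of all genes were. Both treated mice were below both untreated mice in 3 (*Ptx3*, *Sphk1* and *Tm4sf1*), where 12.2% of all genes were. For replicate 1 the margin to the lower untreated mouse was small in *Sphk1* (5.51 against 5.55 CPM) and in *Ptx3* (18.0 against 19.2 CPM). The 2 treated mice differed widely. Replicate 1 stood at a median of 94.0% of the untreated mean over the 9 genes (range 68.4% to 168%), above both untreated mice in *Clcf1* and *Tgm1*, between them in *S100a10*, *Cd109*, *Emp1* and *Slc10a6* and below both in the other 3. Replicate 2 stood at a median of 18.2% (range 8.16% to 114%), below both untreated mice in 8 genes and between them in *Slc10a6*.

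The gap between these mice was widest in *Clcf1*, where replicate 1 was 14.5 times replicate 2, in *Tgm1* (10.03 times) and in *Ptx3* (9.95 times), and narrower in *S100a10*, *Sphk1* and *Cd109* (3.27, 3.19 and 3.18 times). The median log2 gap over the 9 genes was 2.01, and over all genes it was −0.07, with replicate 1 above replicate 2 in 44.7% of them. Without replicate 2, the median difference with LEV at 2 days over the 9 genes was 0.02, with 4 estimates below 0 and 5 above. Without replicate 1 it was −2.45, with 8 below 0. The count of genes called was 0 in each case. The 2 SE 2 days mice also differed, with replicate 2 above replicate 1 in 7 of the 9 genes, by a median of 0.68 on the log2 scale, and without SE 2 days replicate 2 the LEV difference had a median of −0.67, with all 9 estimates below 0.

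**Figure D3:**
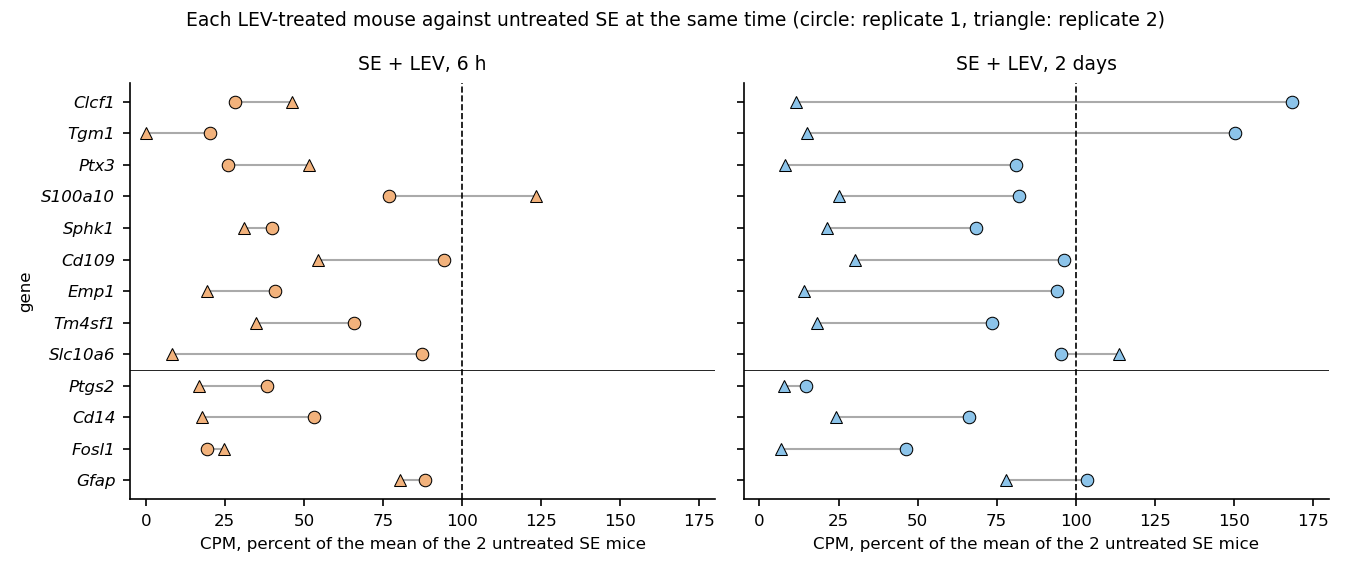
CPM of each LEV-treated mouse as percent of the mean of the 2 untreated SE mice of the same time (x axis, dashed line at 100), for the 9 A2-type genes and, under the line, *Ptgs2*, *Cd14*, *Fosl1* and *Gfap*, with circles for replicate 1 and triangles for replicate 2. At 2 days *Clcf1* spans 11.6% to 168% and *Ptgs2* 7.85% to 14.9%.

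Which genes were still above control under LEV can be read against pre-SE mice. In SE + LEV 2 days mice, 4 of the 9 were called higher than in pre-SE mice (*Tgm1*, 6.12 ± 1.03, adjusted p = 0.011, *Clcf1*, 5.55 ± 0.93, adjusted p = 0.011, *Tm4sf1*, 3.03 ± 0.54, adjusted p = 0.014, and *Ptx3*, 3.67 ± 0.82, adjusted p = 0.044), where 2.83% of all genes were. Of these 4, *Tgm1* and *Clcf1* had to be higher in other mice than pre-SE mice to be tested. *Tm4sf1* and *Ptx3* are the called genes without this dependence. *Emp1* and *S100a10* lay just outside the threshold (adjusted p = 0.053 and 0.055). In 8 genes neither treated mouse overlapped the pre-SE mice, both being higher (22.6% of all genes). *Tgm1*, *Clcf1* and *Slc10a6* are among these 8 and share the dependence named above. In replicate 2, the lower mouse, *Tm4sf1* was 16.3 CPM against at most 4.02 before SE, *S100a10* 70.6 against at most 31.5, and *Clcf1* 1.93 against at most 0.1. *Cd109*, at 4.97 CPM in that mouse, was the exception and lay below both pre-SE mice. Of 19 alternatives, *Clcf1* was called here in 16, *Tm4sf1* in 15, *Tgm1* in 14 and *Ptx3* in 4. The count of 4 was 7 without SE + LEV 2 days replicate 2, 1 without replicate 1 or without pre-SE replicate 2, and 0 without pre-SE replicate 1. The LEV effect at 2 days did not pass the test of a difference from that at 6 h in any of the 9 genes (0 called by limma, unadjusted p from 0.17 to 0.95, and 0 called among all genes, with an unadjusted p under 0.05 upwards in 1.58% and downwards in 0.795% of them).

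*Ptgs2* (cyclooxygenase 2) and *Cd14* (a coreceptor for bacterial lipopolysaccharide) complete the usual A2 list. *Ptgs2* stood at 20.4 and 19.9 CPM before SE, 468 and 170 CPM at 6 h and 176 and 531 CPM at 2 days, and rose at both times (3.802, adjusted p = 0.01, and 3.92, adjusted p = 0.0051). With LEV it was 122 and 53.3 CPM at 6 h and 52.5 and 27.7 CPM at 2 days. The 2 treated mice stood at 14.9% and 7.85% of the untreated mean at 2 days, where replicate 1 was not near the untreated level as it was in most of the 9 genes (difference −2.998, adjusted p = 1). *Cd14* was 1.31 and 0.43 CPM before SE, 34.3 and 29.1 CPM at 6 h and 29.6 and 27.4 CPM at 2 days (rises of 5.19, adjusted p = 0.003, and 5.05, adjusted p = 0.0018), and 16.9, 5.6, 18.8 and 6.9 CPM in the 2 LEV groups, in each case below both untreated mice.

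*Fosl1*, the AP-1 gene the study centres on, was at 1 tag in each pre-SE mouse and at 10.7 and 13.2 CPM at 6 h and 6.78 and 24.2 CPM at 2 days after SE (differences 6.58, adjusted p = 0.003, and 6.69, adjusted p = 0.0014). With LEV it was 2.29 and 2.94 CPM at 6 h, where the mice lay close together. At 2 days it was 7.16 and 1.03 CPM, with replicate 1 again within the untreated range and replicate 2 below it. All 4 FOS family genes (*Fos*, *Fosb*, *Fosl1* and *Fosl2*) rose at 6 h and 3 at 2 days (all but *Fosl2*), where 2.76% and 5.07% of all genes were called higher. Both LEV-treated mice were below both untreated mice in 4 of 4 at 6 h and 3 of 4 at 2 days, where 13.4% and 12.2% of all genes were, with 0 called.

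The other astrocyte lists gave these results beside the A2-type genes. Over all genes, 2.76% were called higher at 6 h after SE and 5.07% at 2 days. Of 13 pan-reactive genes, 5 rose at 6 h, with *Timp1* (5.69), *Lcn2* (5.09), *Steap4* (4.03) and *Osmr* (3.52) at the largest differences, and 11 rose at 2 days, led by *Timp1* (8.72), *Cxcl10* (6.62), *Lcn2* (6.14) and *S1pr3* (5.42). The median differences were 2.44 and 4.96. Of 11 A1-type genes, 1 rose at 6 h (*Ggta1*, 2.90) and 7 at 2 days, led by the immunoproteasome gene *Psmb8* (4.05), *Srgn* (3.71), *Iigp1* (3.68) and the interferon-inducible *Gbp2* (3.32), with medians of 0.40 and 2.23. With LEV at 6 h, 10 of 13 pan-reactive and 4 of 11 A1-type estimates were lower (44.2% of all genes). Their medians were −0.42 and 0.22. Both treated mice were below both untreated mice in 6 pan-reactive genes and 1 A1-type gene (13.4% of all genes), and 0 were called. With LEV at 2 days, 12 of 13 pan-reactive and 9 of 11 A1-type estimates were lower (medians −0.80 and −0.38), against 44.6% of all genes. Of these genes 0 were called, and both treated mice were below both untreated mice in 1 gene of each list (12.2% of all genes). Over each of these lists replicate 2 of SE + LEV 2 days again stood lower than replicate 1: the median difference from pre-SE was 2.36 against 4.90 for pan-reactive genes, 1.04 against 3.08 for A1-type genes and 2.02 against 4.03 for the 9 A2-type genes. Whether the lists differ from each other in their response was not tested.

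**Figure D4:**
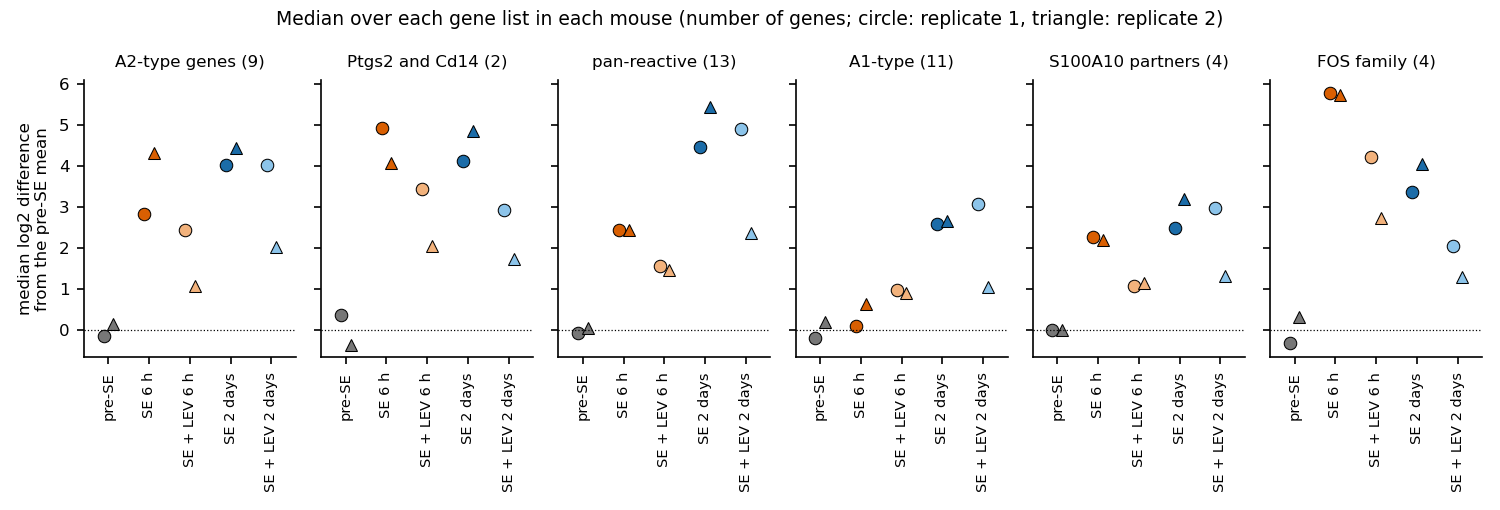
Median over each gene list of the log2 difference from the pre-SE mean (y axis, log2(CPM + 0.1) scale) in each of the 10 mice (x axis, by group; circles for replicate 1, triangles for replicate 2). At 2 days with LEV the circle lies above the triangle in all 6 lists, at 4.03 against 2.02 for the A2-type genes and at 2.06 against 1.28 for the FOS family.

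Partners of the 9 proteins were described as lists of related genes. The shares of all genes called higher, 2.76% at 6 h and 5.07% at 2 days, stand beside each count of genes that rose. Of 7 genes for CLCF1 partners and gp130 signalling, 2 rose at 6 h (*Socs3*, the feedback inhibitor of JAK–STAT signalling, by 6.46, and the receptor gene *Osmr*) and 3 at 2 days (*Socs3*, 5.92, *Osmr*, 3.87, and *Stat3*, 2.18). *Socs3* was 0.83 and 0.89 CPM before SE, 53.1 and 133 CPM at 6 h and 65.9 and 51.4 CPM at 2 days. Of 4 genes for partners of S100A10, 2 rose at 6 h and 3 at 2 days. *Anxa2*, the gene of annexin A2, was 5.0 and 5.53 CPM before SE and 40.2 and 53.4 CPM at 6 h (3.12, adjusted p = 0.014), and 45.9 and 111 CPM at 2 days (3.74, adjusted p = 0.0036). *Plat* (tissue plasminogen activator) rose at 6 h (2.07), and *Plau* (3.20) and *Ahnak* (2.61) rose at 2 days. With LEV at 6 h, both treated mice were below both untreated mice in all 4 of these genes, as *Anxa2* at 24.5 and 26.8 CPM shows, and at 2 days in none of them. Over all genes the shares were 13.4% at 6 h and 12.2% at 2 days.

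In the lists that follow, the share of all genes called higher was again 2.76% at 6 h and 5.07% at 2 days. Of 10 genes of the sphingosine 1-phosphate pathway, 0 rose at 6 h and 2 at 2 days, the receptor gene *S1pr3* (5.42) and the lyase gene *Sgpl1* (1.44). *S1pr3*, which is also on the pan-reactive list, was 2.41 and 2.86 CPM before SE and 85.0 and 159 CPM in SE 2 days mice, and 117 and 13.8 CPM with LEV. Of 6 genes for PTX3 partners and hyaluronan matrix, 0 rose at 6 h and 2 at 2 days, the hyaluronan receptor gene *Cd44* (5.18) and the synthase gene *Has2* (4.91, from 0.48 and 0.72 CPM to 15.6 and 27.4 CPM, and 20.7 and 1.48 CPM with LEV). Of 8 genes for TGF-β signalling around CD109, 1 rose at 6 h (*Smad7*, 1.91) and 3 at 2 days (*Cav1*, 2.33, *Tgfb1*, 2.33, and *Tgfbr2*, 1.77). Among the relatives of the members, *Emp3* rose at 2 days (3.69, 1 of 4 PMP22/EMP and L6 genes), *Tgm2* at both times (1.91 and 2.44, 1 of 2 transglutaminases) and *B3gnt8* at 2 days (2.37, 1 of 4 genes related to *B3gnt5*). None of 3 SLC10 genes rose, and *Slc10a4* had the largest difference at 2 days (2.05, adjusted p = 0.11). No gene of any of these lists was called with LEV at either time, and none fell after SE.

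Markers of cell types were read in the same libraries, where 2.76% of all genes were called higher at 6 h after SE and 5.07% at 2 days. All 11 astrocyte markers were detected in every mouse. *Gfap* was 246 and 230 CPM before SE, 394 and 783 CPM at 6 h and 2282 and 3642 CPM at 2 days (3.60, adjusted p = 0.00095), and 3071 and 2312 CPM with LEV at 2 days, so the 2 treated mice were closer in *Gfap* (1.33 times) than in 8 of the 9 A2-type genes. *Gfap* and *Aqp4* were the 2 astrocyte markers that rose at 2 days, and the median of the 11 was −0.22. By the test 0 of the 11 fell. Yet 5 markers had lower values at 2 days after SE than before it, without overlap of the groups. The differences were −1.18 for *Aldoc*, −0.98 for *Gja1*, −0.93 for *Slc1a2*, −0.86 for *Ndrg2* and −0.73 for *Slc1a3*. Each of them had an unadjusted limma p under 0.05. Higher without overlap were 4 markers, namely *Gfap*, *Aqp4*, *Aldh1l1* and *Sox9*. Between the 2 treated mice at 2 days, most astrocyte markers were higher in replicate 2. These were *Gja1* (96.2 and 251.08 CPM), *Aldoc* (255 and 573 CPM), *Aldh1l1*, *Slc1a2*, *Slc1a3*, *S100b*, *Sox9* and *Ndrg2*, while *Gfap*, *Aqp4* and *Fgfr3* were higher in replicate 1. The median difference of the 11 from pre-SE was −0.15 in replicate 1 and 0.35 in replicate 2. Of 5 markers of blood-derived myeloid cells, 0 rose at 6 h and 3 at 2 days (*Plac8*, *Lyz2* and *Ms4a7*), and their summed CPM ranged from 5.76 to 6.17 before SE, 10.5 to 13.3 at 6 h after SE, 9.3 to 14.5 at 6 h with LEV and 38.8 to 75.2 at 2 days after SE. With LEV at 2 days it was 82.6 in replicate 1 but 23.6 in replicate 2. Most of this sum was *Lyz2* (70.8 and 16.7 CPM in these 2 mice). *Ms4a7* was also lower in replicate 2 (6.61 and 1.31 CPM), *Plac8* differed little (3.43 and 2.96 CPM), and *S100a8* and *S100a9* were higher in replicate 2 (1.21 and 1.6 CPM, and 0.55 and 1.07 CPM). Of 6 microglial markers, 2 fell at 6 h (*P2ry12* and *Tmem119*, where 0.202% of all genes were called lower) and 1 rose at 2 days (*Aif1*). Their sums in the 2 SE + LEV 2 days mice were 373 and 357 CPM, with *Csf1r* at 154 and 149 CPM. Within these sums *P2ry12* was higher in replicate 2 (20.4 and 52.7 CPM), and the other markers were higher in replicate 1, among them *Tmem119* (43.5 and 23.3 CPM). Of 7 endothelial markers, 1 rose at 6 h (*Cdh5*) and 0 at 2 days by the test. But 6 of 7 at 6 h and 7 of 7 at 2 days were higher in both SE mice than in either pre-SE mouse (18.6% and 26.3% of all genes). The median difference was 0.79 at 2 days, and the sums in the 2 SE + LEV 2 days mice were 109 and 162 CPM. None of 7 mural cell and fibroblast, 6 neuronal and 4 oligodendrocyte markers was called at either time. No marker was at 0 in any mouse, and the part of other cell types in the A2-type values was not tested.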

How the data were processed

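Hippocampal RNA of 10 mice was profiled by CAGE. The authors mapped tags to mm9 with BWA 0.7.17 and the remainder with HISAT2 2.0.5, clustered them with the RECLU pipeline, removed clusters under 0.1 CPM, and deposited 1 CPM value per gene and mouse, rounded to 2 decimals. The step from clusters to genes is not given in the sources used here. The members and gene lists were chosen with earlier results of these data known.

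Groups followed the labels. Comparisons used limma 3.58.1 under R 4.3.3. Values entered as log2(CPM + 0.1) into 1 model of all 10 libraries with 5 group means and a mean-variance trend, two-sided, with Benjamini-Hochberg adjustment over 15851 genes, and the threshold for a call was an adjusted p of 0.05. Fold changes on this scale understate changes of low genes. That replicates are separate animals follows from the study's description of 2 mice per group. A listed marker gene is not reported here. The fit was tested on simulated counts with the same spread in every group. That spread was not set from these mice, so the test does not cover replicates as far apart as some described here. Library totals came from the smallest total at which 100% of CPM values were whole tags within 0.005 CPM, and limits of detection cover counting error only. Positions came from GENCODE M1. Named were the 9 genes, *Ptgs2*, *Cd14*, *Fosl1* and *Gfap* in every group, and per list at most 4 called genes with non-overlapping groups, by size of difference. The alternatives were other pseudocounts, filters, scaling, trend, sample sets, a replicate block and each mouse left out. Python 3.11.15, pandas 2.3.3 and matplotlib 3.10.9 were used.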

Additional observations from a re-analysis of the deposited data

How the results depend on the processing

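Adding 1 CPM in place of 0.1 left 1 of the 9 genes called at 6 h after SE (*Emp1*) and 1 in SE + LEV 2 days mice against pre-SE (*Tm4sf1*). A fit of only the groups compared gave 0 for the latter and 4 for SE 2 days against SE 6 h. With each mouse left out in turn, the genes called ranged from 0 to 7 for SE 6 h against pre-SE, 3 to 7 for SE 2 days against pre-SE, 0 to 2 for SE + LEV 6 h against pre-SE, 0 to 7 for SE + LEV 2 days against pre-SE and 0 to 4 for SE 2 days against SE 6 h. Leaving out a mouse means fewer samples by construction, and otherwise the cause was not tested. For SE 2 days against pre-SE, 7 genes were called under each alternative run that kept all 10 mice. None of the 9 was called for LEV against SE under any alternative run. Over all genes, calls at 6 h after SE ranged from 106 to 532 higher and 2 to 39 lower, and at 2 days from 246 to 999 higher and 3 to 190 lower; calls with LEV ranged from 0 to 2 higher and 0 to 9 lower at 6 h, and from 0 to 1 higher and 0 to 2 lower at 2 days. Against pre-SE, calls higher ranged from 0 to 86 in SE + LEV 6 h and from 62 to 619 in SE + LEV 2 days mice. Tests of the recovered tags with edgeR and DESeq2 were planned but not run here. At a limit of 0.058 to 0.285 CPM, depth restricts what can be said of *Tgm1*, *Slc10a6* and *Clcf1* before SE, of *Tgm1* and *Slc10a6* with LEV at 6 h, and of *Slc10a6* at 2 days.

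Signs changed in values that were not called. Median-of-ratios rescaling gave −0.067 for *Emp1* in SE 2 days against SE 6 h mice. With a mouse left out, this comparison ranged from −0.66 to 0.73 for *Emp1* and from −0.63 to 1.16 for *Sphk1*. For LEV against SE at 2 days, leaving out a mouse gave −3.02 to 0.77 for *Clcf1*, −2.64 to 0.62 for *Tgm1*, −2.62 to 0.071 for *Emp1*, −1.63 to 0.020 for *Cd109*, −0.42 to 0.72 for *Slc10a6* and −0.45 to 0.22 for *Gfap*. For LEV at 6 h it gave −0.38 to 0.30 for *S100a10* and −0.66 to 0.33 for *Gfap*. Against pre-SE, *Cd109* ranged from −0.074 to 0.37 in SE 6 h, from −0.69 to 0.081 in SE + LEV 6 h and from −0.20 to 1.44 in SE + LEV 2 days mice.

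The labels number the mice 1 and 2 in every group, but these are different animals. Whether mice of the same number share anything else is not given by the labels. Deviations of same-numbered mice correlated across genes at 0.343 between SE 6 h and pre-SE, 0.149 between SE + LEV 6 h and SE 6 h, 0.0566 between SE 2 days and pre-SE and −0.175 between SE + LEV 2 days and SE 2 days. The largest in size was −0.436, between SE + LEV 2 days and pre-SE. The others were 0.0934 between SE + LEV 6 h and pre-SE and −0.0186 between SE 2 days and SE 6 h. What lies behind these correlations was not tested. With the replicate block, 5 of the 9 genes were called at 6 h (all of the 6 but *Clcf1*), 7 at 2 days, 3 in SE + LEV 2 days mice against pre-SE (all of the 4 but *Ptx3*) and 0 for LEV against SE at either time.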
